A study of Homo sapiens with 6 samples.

Results

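The peaks described are the places where RNA polymerase II (Pol II) was found in SK-Hep1 cells that received control siRNA. SK-Hep1 is an established line that was isolated from a human adenocarcinoma of the liver. All peaks of the control list on chromosomes 1 to 22 and X were taken, which gave 31690 of the 31761 peaks of that list and 31690 of the 89811 peaks in the 3 lists of the series. The series holds 6 samples, 3 chromatin immunoprecipitations (ChIP) and 3 inputs. Its conditions are control siRNA (siCtrl, written nc in the sample labels), siRNA against malic enzyme 2 (siME2), and siME2 with αKG added (siME2+αKG). Only the siCtrl ChIP list, called against the siCtrl input, was used for the values below. Chromatin was precipitated with an anti-Pol II antibody from Abcam (ab26721), and cells grew in DMEM with fetal bovine serum and antibiotics. There was 1 siCtrl ChIP library, so the values have no replicate error and no test was made between genes. Its sample label is nc_2, and the series holds no other siCtrl ChIP library.

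Pol II transcribes all protein-coding genes of the nucleus and many noncoding ones. At many promoters it starts, moves a short distance and pauses before it is released into the gene body, so ChIP signal commonly stands highest just downstream of the start site. Signal through a whole gene is commonly seen at genes transcribed at a high rate, where many polymerases travel at once. A peak gives the presence of the polymerase and not the amount of RNA made.

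The siCtrl ChIP library held 17243981 tags, of which 13006504 remained after duplicates were removed, and its input held 15111004 after the same step. The pileup of a peak is the number of extended ChIP fragments that cover its summit, and it had not been scaled. Peaks covered 29.3 Mb in all, and their median length was 603 bp. The median pileup at summits was 20 fragments, with a range from 8 to 288. The authors' fold compares the pileup with a local background made from the input, which had a median of 1.63 fragments over all peaks.

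The cell line was checked against markers of the tissue it came from and of other cell types. Over all protein-coding genes 63.2% had a peak within 1 kb of a start site, and the counts of markers are read against that share. Of 20 hepatocyte genes, 3 had a peak within 1 kb of a start site and 16 had no peak at all, including ALB (albumin), APOA1 (the main protein of high-density lipoprotein), TTR (transthyretin) and HNF4A (a hepatocyte transcription factor). CYP2E1, an ethanol-oxidising enzyme, was the highest of them with 50 fragments, and it was reached through a start site other than that of its canonical transcript. Of 15 mesenchymal genes, 11 had a promoter peak, led by VIM (vimentin) with 140 fragments, SPARC with 82 and CAV1 (caveolin) with 72. COL1A1, COL1A2, COL6A1 and TAGLN of that list had none. Of 11 epithelial genes, 8 had a promoter peak, led by KRT8 and KRT18, the keratin pair of simple epithelia, which shared a summit of 124 fragments. ESRP1, GRHL2 and OVOL1, regulators of epithelial identity, had none. Of 11 endothelial genes, 3 had a promoter peak, ESAM with 24 fragments, EGFL7 with 21 and ROBO4 with 15, while KDR, FLT1, TEK, TIE1, VWF, ERG and CLDN5 had no peak. Of 10 leukocyte genes, CSF1R with 18 fragments and CD68 had a promoter peak. The limit given for CYP2E1 was not particular to the hepatocyte list. ASGR1, VIM, CAV1, ACTA2, KRT7, EGFL7 and CSF1R also had a promoter summit but none within 1 kb of a canonical start site. Promoter pileup summed to 62 fragments over the hepatocyte list, 554 over the mesenchymal, 473 over the epithelial, 60 over the endothelial and 18 over the leukocyte list. These lists differ in size, and the shared KRT8 and KRT18 summit enters the epithelial sum under both genes. The mesenchymal and epithelial counts lie close to the share over all genes, so they do not set the line apart by themselves. The defining hepatocyte genes carried almost no listed Pol II, and the liver label is kept here only as the line's origin.

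Of 19359 protein-coding genes on these chromosomes, 12229 had a peak within 1 kb of an annotated start site, which is 63.2% (95% Clopper-Pearson interval 62.5 to 63.8, counting error only). No peak lay over the gene or within 1 kb of a start site for 6663 genes, which is 34.4% (33.7 to 35.1). A further 467 genes had a peak in the body only. Among the 12053 genes with a summit inside the promoter window, the median promoter pileup was 56 fragments, the middle 50% ran from 38 to 73, and the 99th percentile was 128. The tallest listed promoters stood only a few times above the typical one, on a scale where 1 tag per position limits any summit to 422 fragments: 704 genes reached 100 fragments, 32 reached 150, and the highest reached 210.

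The promoters with the highest pileup, and that of the gene of 10 kb or more with the most complete coverage of its body, are shown because the results turn on them. The albumin promoter is shown as the one without a peak. Each runs 5′ to 3′ on the gene's strand of GRCh37 (hg19), with the start site at base 151 of 180. Capitals mark every match to 8 short motifs searched on both strands, none of which contains another. They were TATAAA for the box bound by the TATA-binding protein, GGGCGG for the GC box bound by SP1, the CCAAT box, TGACGTCA for the cyclic AMP response element, CCGGAAGT for ETS factors, GCATGCGC for NRF1, GAANNTTC for the heat shock element and TGANTCA for AP-1.
CROCC (chr1:17066618-17066797, plus strand): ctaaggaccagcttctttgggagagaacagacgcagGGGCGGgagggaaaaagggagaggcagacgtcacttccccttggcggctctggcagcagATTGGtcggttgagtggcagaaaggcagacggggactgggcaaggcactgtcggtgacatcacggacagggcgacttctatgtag
NOTCH2 (chr1:120612201-120612380, minus strand): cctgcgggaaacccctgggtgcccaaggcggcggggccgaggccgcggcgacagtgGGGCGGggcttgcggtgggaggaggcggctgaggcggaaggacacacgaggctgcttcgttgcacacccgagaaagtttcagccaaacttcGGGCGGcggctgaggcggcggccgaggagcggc
H3-3B (chr17:73775655-73775834, minus strand): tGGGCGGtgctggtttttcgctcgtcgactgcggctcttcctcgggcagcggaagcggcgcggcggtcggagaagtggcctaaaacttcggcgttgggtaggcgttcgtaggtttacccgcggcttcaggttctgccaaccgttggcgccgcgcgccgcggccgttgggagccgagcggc
DNAJB1 (chr19:14629180-14629359, minus strand): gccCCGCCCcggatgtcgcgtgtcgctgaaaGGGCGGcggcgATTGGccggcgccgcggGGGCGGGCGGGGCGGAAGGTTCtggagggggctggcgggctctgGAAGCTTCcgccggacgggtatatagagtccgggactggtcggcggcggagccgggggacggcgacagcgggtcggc
EIF1 (chr17:39845037-39845216, plus strand): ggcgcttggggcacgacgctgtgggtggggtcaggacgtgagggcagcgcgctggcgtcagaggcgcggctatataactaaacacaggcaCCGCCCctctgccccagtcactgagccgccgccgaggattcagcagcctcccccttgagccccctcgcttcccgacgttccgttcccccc
AMOTL2 (chr3:134093258-134093437, minus strand): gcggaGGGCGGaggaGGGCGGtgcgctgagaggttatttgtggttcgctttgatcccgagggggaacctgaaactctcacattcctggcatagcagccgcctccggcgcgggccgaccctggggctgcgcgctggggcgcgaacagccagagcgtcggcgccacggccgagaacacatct
ALB (chr4:74269854-74270033, plus strand): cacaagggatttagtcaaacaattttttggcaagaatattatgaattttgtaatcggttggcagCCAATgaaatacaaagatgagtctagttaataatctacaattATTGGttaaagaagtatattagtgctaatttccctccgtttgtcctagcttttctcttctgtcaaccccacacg

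The printed DNAJB1 promoter held 5 GC boxes, 1 CCAAT box and 2 heat shock elements, the site that heat shock factor binds, and DNAJB1 encodes a partner of the HSP70 chaperone. The start of the nearer heat shock element lay 47 bp before the start site and that of the other 77 bp before it. H3-3B and EIF1 had 1 match each, both to the GC box. Only the exact letters of each motif were searched, so the letters TATATA in the DNAJB1 and EIF1 promoters are not marked. ALB had 2 CCAAT boxes and no GC box. Over a window of 200 bases, from 150 before the start site to 49 after it, GC content was 76.5% for DNAJB1 and 36% for ALB.

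The 20 genes with the highest promoter pileup encode proteins of diverse function. CROCC, which encodes rootletin of the ciliary rootlet, stood first with 210 fragments (95% Poisson interval 183 to 240, counting error only) on chromosome 1. Its authors' fold was 26.8, over a background of 6.89 fragments, and the U1 small nuclear RNA gene RNU1-4 lies within 1 kb of the same site, so the polymerase there cannot be assigned to one of them. NOTCH2, a cell surface receptor, followed with 197 fragments (170 to 227) and a fold of 37.3. CROCC and NOTCH2 both have near-identical copies elsewhere on chromosome 1, so their read counts are uncertain. H3-3B, which encodes the replication-independent histone H3.3, had 190 fragments (164 to 219) over a background of only 1.53. Its fold of 75.6 was the highest of any promoter.

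DNAJB1 had 187 fragments and a background of 6.03. EIF1, which helps the ribosome choose the start codon, had 186 fragments, and its peak of 7935 bp spanned the whole gene. TRIM25, a ubiquitin ligase of antiviral signalling, reached 183. The antiproliferative gene TOB1 reached 177. CCN1, a matricellular protein made by adherent cells, DNAJC25, a J-domain protein, and JPT1 reached 175 each. The counting intervals of these 7 genes overlap, so their order is not resolved.

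Among the next genes, EIF4A3, the helicase of the exon junction complex, had 173 fragments. SRSF2, a splicing factor, and MFSD11 start in opposite directions and shared 1 summit of 170. SLC16A3, which exports lactate, had 163, and the ubiquitin ligase RNF135 had 159. RPL13 of the large ribosomal subunit had 158, FTH1, the ferritin heavy chain, 157, and the RNA-binding protein HNRNPAB, the S-adenosylmethionine synthase MAT2A and the tubulin TUBA1B had 156 each. Just outside the leading 20, TMSB10 (a thymosin that binds actin) and TNRC6C each had 155 fragments. The border at rank 20 therefore rests on 1 fragment.

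**Figure D1:**
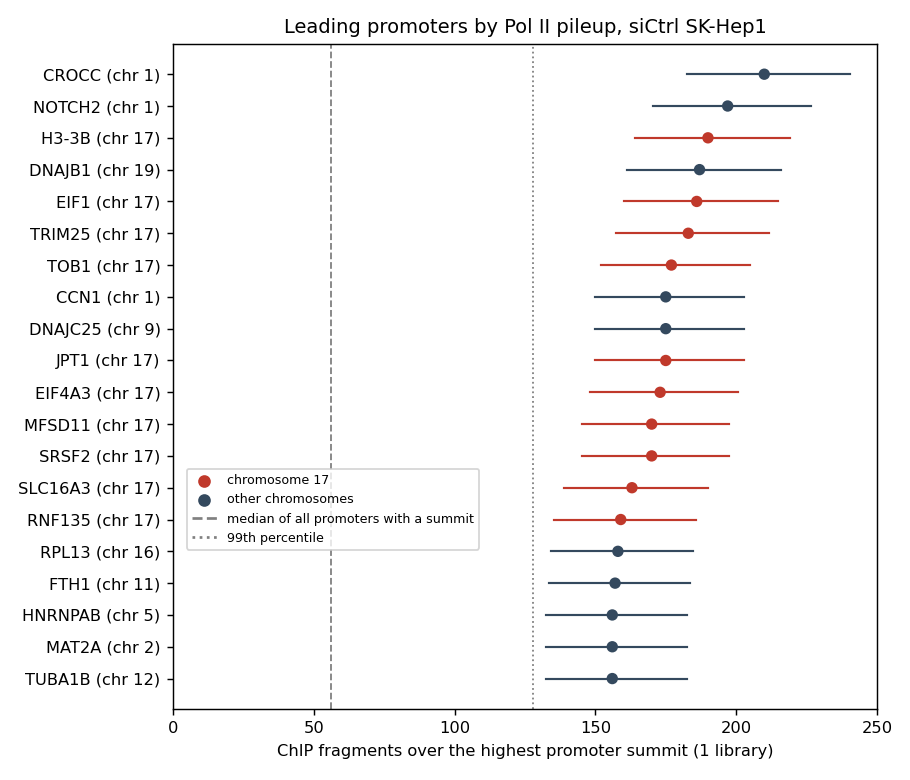
Points give ChIP fragments over the highest summit within 1 kb of a start site for the 20 protein-coding genes with the highest promoter pileup in the siCtrl library, and lines give 95% Poisson intervals for counting error. All 20 lie at 156 or above, to the right of the median of 56 and the 99th percentile of 128, and 10 of them are on chromosome 17.

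The leading genes fell unevenly over the chromosomes. Of the leading 20, 10 were on chromosome 17, and the leading 100 (0.83% of promoters with a summit) included 28 from that chromosome, which holds 6.25% of promoters with a summit. The median promoter pileup on chromosome 17 was 72 fragments, the highest of all chromosomes, and its median local background was also the highest, at 2.36 fragments. On the authors' fold, which divides by that background, chromosome 17 had a median of 20.4, against 20.1 over all promoters, and 10 of the leading 100. Chromosome X stood at the other end with a median pileup of 41 fragments and a background of 1.02, equal to the genome-wide minimum of the list, and its median fold was 18.005. Median fold ran from 16.9 on chromosome 19 to 23.4 on chromosome 21. Whether the amount of DNA per chromosome in this line had a part in the pileups was not tested. The share of genes with a promoter peak ran from 47.1% on chromosome X to 70.5% on chromosome 16, and was 55.0% on chromosome 11.

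**Figure D2:**
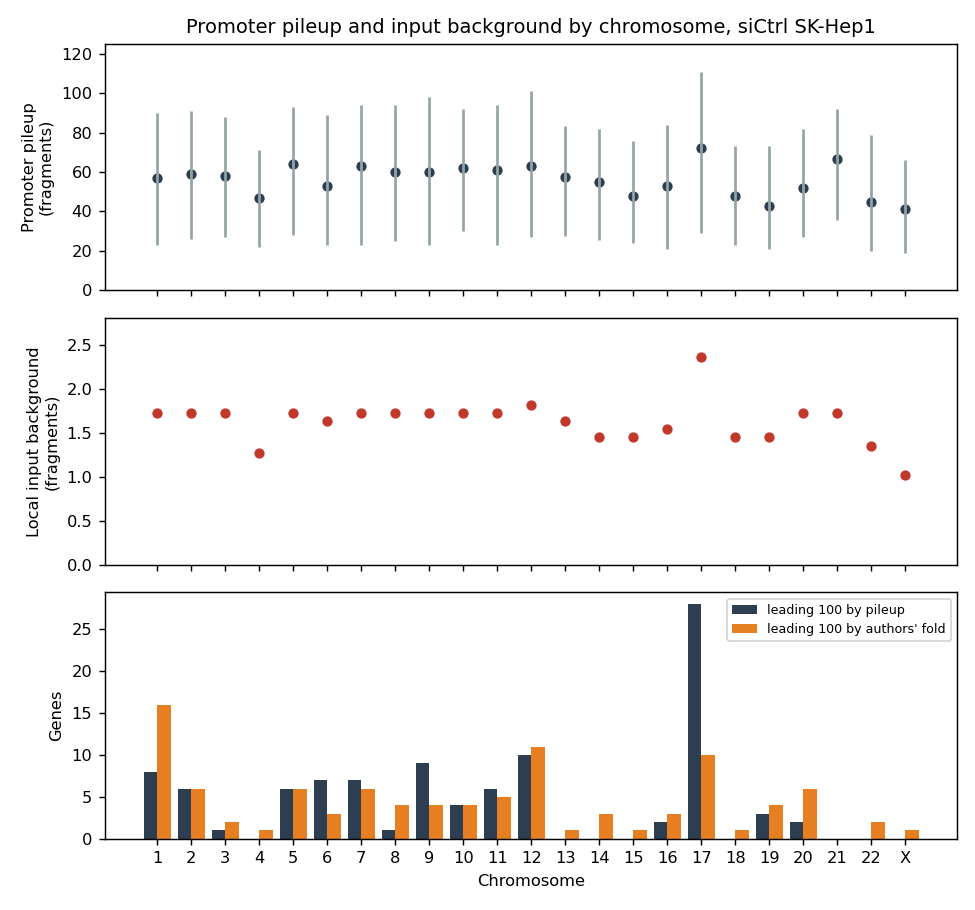
Per chromosome, the upper panel shows median promoter pileup in fragments with lines from the 10th to the 90th percentile, the middle panel the median local input background in fragments, and the lower panel the number of the leading 100 genes by pileup (dark) and by authors' fold (orange). Chromosome 17 is highest in the first 2 panels, and its 28 genes by pileup become 10 by fold.

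Pileup and fold therefore gave different heads of the list. The 2 leading-100 lists shared 35 genes, 35% of each, and H3-3B and DNAJC25 were the 2 genes of the leading 20 by pileup that were also among the leading 20 by fold. Of the leading 20 by pileup, 11 had a background above 3 fragments, compared with a median of 1.72 over all promoters. Leading promoters also had long peaks: the median length of the peak was 3534 bp for the leading 20 and 1162 bp over all promoters. Across the 12053 genes Spearman's rank correlation between promoter pileup and the length of the same peak was 0.619, as a description of 1 library in which a taller signal also passes the caller's threshold over more bases.

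Summits lay mostly just inside the gene. The median summit stood 59 bp downstream of the nearest annotated start site, with the middle 50% from 83 bp upstream to 124 bp downstream. Counted per gene, 59.5% of summits lay from 0 to 200 bp downstream and 33.0% lay upstream. A summit shared by neighbouring genes was counted once for each of them. That of SRSF2 and MFSD11, for example, counts as downstream for SRSF2 and as upstream for MFSD11. How far shared summits raise the upstream share was not tested. Taller promoters were more sharply placed: among the 1221 with 91 or more fragments 64.4% fell between 0 and 200 bp, and the middle 50% spanned 168 bp. Among the 1207 with 23 or fewer fragments 45.7% did, and that span was 262 bp. Height and sharpness share their counts here, since a summit made of few fragments is placed less exactly.

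**Figure D3:**
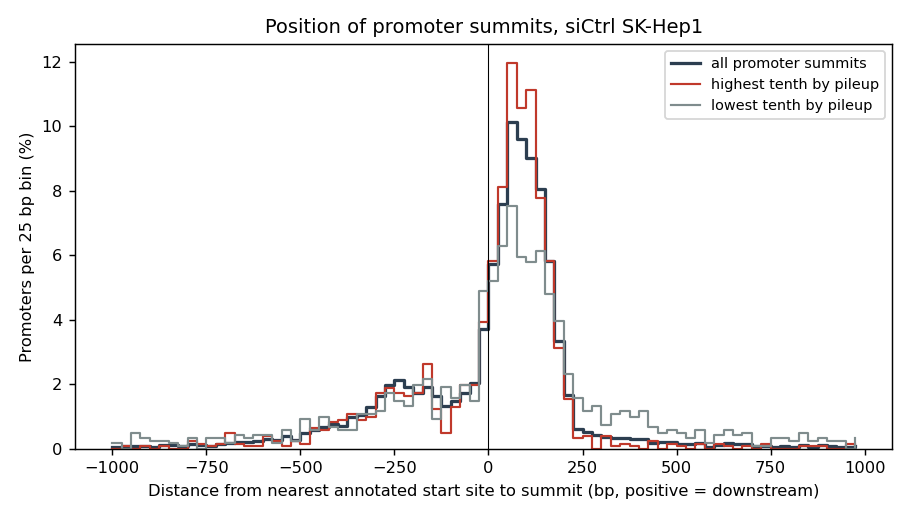
The share of promoter summits in each 25 bp bin is plotted against distance from the nearest annotated start site in bp, for all 12053 promoters (dark), those with 91 or more fragments (red) and those with 23 or fewer (grey). The main mode lies between 0 and 200 bp downstream and is highest for the tall promoters, and a lower shoulder lies upstream. A summit shared by neighbouring genes enters once for each gene.

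In sequence, promoters with a summit were rich in G and C. The window lay at the annotated start site nearest the summit, or at the canonical start site where a gene had no summit. Groups with and without a peak were therefore read at sites chosen in different ways, and the effect of this on the shares below was not tested. Median GC content of the 200-base window was 71.5% for the 3013 promoters with 73 to 210 fragments, 68% for the 3014 with 8 to 38, and 56.5% for the 6457 genes with no peak whose window was read. The CpG ratio (CpG found over that expected from the base content, lowest where CpGs have been lost in evolution) ran in the same order, at 0.933, 0.834 and 0.371. GC boxes were found in 82% of the leading 100 promoters, 55.0% of all 19137 and 33.0% of those with no peak. The ETS motif, bound by GABPA and related factors, was found in 8.40%, 9.23%, 7.87% and 4.88% of promoters with a summit, in 4 groups of nearly equal size from the highest pileup to the lowest. It was found in 5% of the leading 100, 5.01% of all promoters and 0.573% of those with no peak. A match is a description of letters and not of binding.

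TATA boxes, read as the exact letters TATAAA, had higher shares in the leading 100 and in promoters with no peak. TATAAA occurred in 20% of the leading 100, in 14.3% of promoters with no peak and in 6.74% of all. In the 4 groups from the highest pileup to the lowest, the shares were 4.28%, 1.29%, 1.53% and 3.22%. All 4 lay below the share of all promoters, so the high share of the leading 100 did not extend to the highest group as a whole. Between 45 and 15 bp before the start site, where the TATA-binding protein works, TATAAA began in 7 of the leading 100, compared with 4.07% of all promoters. These 7 were JPT1, MFSD11, MAT2A, DUSP1 (a phosphatase induced by growth factors and stress), VIM, DKK1 (a secreted WNT inhibitor) and HSPA1B (an inducible HSP70). Other matches in the leading 100 began just outside these limits, at −47 in HERPUD1 and H2AX, −48 in BRD2 and TUBB2A and −49 in ACTB. Positions were counted from the annotated start site nearest the summit, so the count of 7 depends on that choice and on the limits.

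Wide peaks picked out other loci than tall promoters did. Peaks of at least 10000 bp numbered 42. The widest, chr7:130577267-130602523, was 25257 bp long with a summit of 60 fragments and lay over the noncoding genes LINC-PINT and LINC00513, with no protein-coding gene. A peak of 12926 bp lay next to it over the same genes. NEAT1, the RNA on which nuclear paraspeckles are built, lay under a peak of 17068 bp with a summit of 119 fragments, and MALAT1, an abundant nuclear RNA, under one of 13024 bp with 88. These 4 were the widest-20 peaks that touched no protein-coding gene.

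Among protein-coding genes PLEC, which encodes the cytoskeletal linker plectin, was overlapped by the widest peak, 18734 bp long. That peak lay over the downstream end of the gene and beyond it, away from the start sites, and its summit of 47 fragments stood on a background of 6.03, for a fold of only 6.83. AMOTL2, a junction protein of the angiomotin family, lay under a peak of 17126 bp with 113 fragments at its promoter. SQSTM1, the autophagy receptor p62, had a peak of 15926 bp and 128 fragments, and the cytoplasmic actin gene ACTG1 one of 13935 bp and 149 fragments. For these last 3 the peak held a start site and covered much of the gene, 85.1% of AMOTL2, 50.3% of SQSTM1 and 78.6% of ACTG1.

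Several wide peaks joined close neighbours. One of 14998 bp covered all of IMPDH2, which makes guanine nucleotides, of NDUFAF3, an assembly factor of respiratory complex I, and of DALRD3, and touched WDR6 and QRICH1. One of 13041 bp covered all of FOSL1, an AP-1 subunit, and CCDC85B and reached FIBP. One of 13700 bp covered the tetraspanin gene CD151 and the Pol II subunit gene POLR2L and reached TSPAN4, and one of 14502 bp covered ARHGDIA and reached P4HB, which forms disulphide bonds in the endoplasmic reticulum. A peak of 16814 bp covered SLFNL1 and reached the end of SCMH1. Other wide peaks lay over SNHG29 and part of LRRC75A, over the MIR23AHG locus past the end of ZSWIM4, over parts of MOK, of SGK1 (a kinase of sodium transport), of the receptor kinase AXL and of integrin ITGA3, and over part of BRI3 and the end of BAIAP2L1. In all, 27 protein-coding genes were touched by the widest 20, 7 of these peaks held no coding start site, and their summits ranged from 36 to 149 fragments. Only 1 of the 20 held the summit of a leading-100 promoter.

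Coverage of the gene body was read for genes of at least 10 kb, since a shorter gene can be filled by its promoter peak. For 9843 such genes with a promoter peak the median share of the gene under peaks was 2.09%, the middle 50% ran from 0.908% to 5.04%, and the 99th percentile was 48.9%. Most bodies were thus nearly bare of listed signal. Among all 14249 genes of at least 10 kb, with or without a promoter peak, 507 reached 20%, 94 reached 50% and 18 reached 80%. In the 9757 of them with a promoter summit, Spearman's rank correlation with gene length was −0.731, as a description, since a promoter peak fills a smaller share of a longer gene.

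The genes with the fullest bodies were also of diverse function. AMOTL2 was covered over 97.1% of its 20.1 kb by 3 peaks. F3, the tissue factor that starts coagulation, was covered over 91.5%, THBS1 (thrombospondin) over 82.3% and the hormone gene STC2 over 81.6%. GPRC5A, an orphan receptor, was covered over 95.9%. The integrin subunit ITGA3 was covered over 90.04% of 34.5 kb, the actin cross-linker FLNA over 90.3%, ACTG1 over 85.9%, the type II keratin KRT80 over 80.3%, and AXL over 79.2% of 42.5 kb.

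Several others encode enzymes, transporters or regulators. RACK1, a ribosome-bound scaffold, was covered over 94.8%. CTPS1, which makes CTP, was covered over 90.5% of 33.3 kb. The amino acid transporters SLC7A5 and SLC38A2 were covered over 84.9% and 84.5%. CCND1, which encodes cyclin D1 and is named in the title of the study, ranked 16th with 81.3% of its 13.3 kb under 6 peaks, while its promoter pileup of 98 fragments ranked 756th. TOR3A (83.8%), CPNE7 (80.1%), NOXA1 (79.4%) and PSCA (84.8%) were also among the leading 20. PSCA, THBS1, CCND1 and NOXA1 overlap another protein-coding gene, so peaks in them may belong to either. DUSP5, just outside, was covered over 77.4%.

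These 20 genes were not the tallest promoters. Their promoter pileup ranged from 47 to 149 fragments with a median of 92, and only ACTG1 was among the leading 100. In the 19 with a summit away from start sites, the highest such summit ranged from 17 to 74 fragments, with a median of 30. The median was 17 in the 2877 genes of this length that had one. Each value is the highest of a gene's summits, and the 20 genes were chosen for coverage by peaks. These medians are therefore not on equal terms. When 1 kb on either side of every start site was set aside, each of the 20 was still covered over at least 69.9% of the rest. Over the 9757 genes Spearman's rank correlation between promoter pileup and share covered was 0.309.

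Long genes were covered in pieces. SMURF2, a ubiquitin ligase of transforming growth factor β signalling, was covered over 49.2% of 120.03 kb (59.0 kb in 87 peaks), the highest share among genes of 100 kb or more. TXNRD1, a thioredoxin reductase, followed with 41.8% in 41 peaks. HMGA2, an architectural chromatin protein of embryonic and tumour cells, had 20.9%. At the short end 172 genes were covered completely, the longest being EEF2, the elongation factor 2 gene, with 9408 bp.

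**Figure D4:**
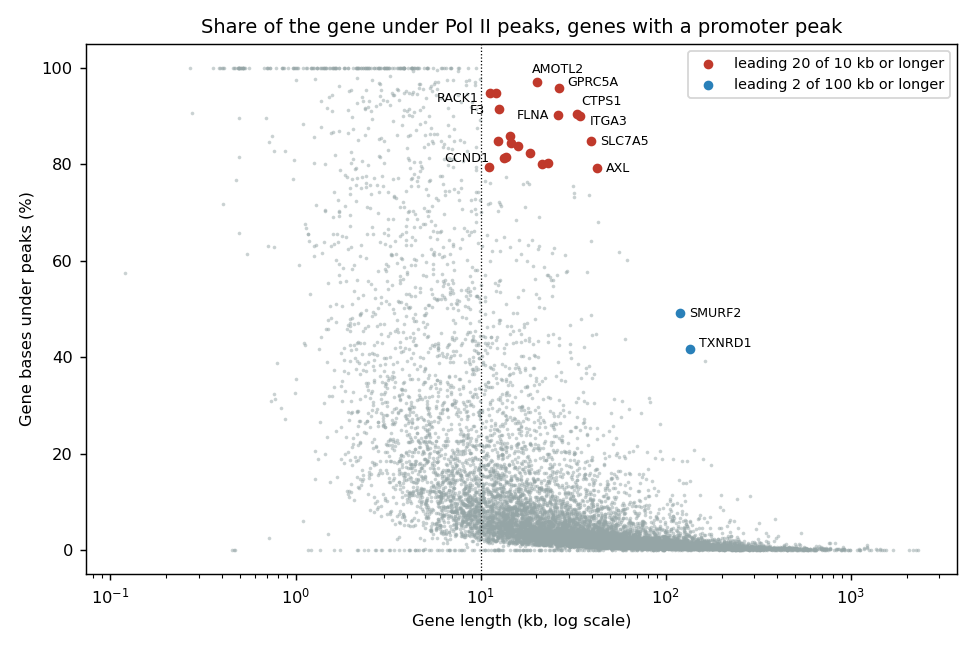
Each point is a protein-coding gene with a promoter peak, with gene length in kb on a log axis and the percentage of its bases under siCtrl peaks on the other. Red points are the leading 20 of at least 10 kb (dotted line), all above 79%, and blue points are SMURF2 and TXNRD1, the leading 2 of at least 100 kb.

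Over all protein-coding genes 63.2% had a promoter peak and 34.4% had no peak, and the family counts here and below are read against these shares. Genes without a peak were counted in 78 families defined by symbol, which held 1824 of the 6663 genes with no peak. Among the families, 14, with 225 genes, had no promoter peak and no peak in the body. Most belong to defence, epidermis, the germline, drug conjugation and neural or sensory function. They were the beta-defensins (0 of 40 genes, upper Clopper-Pearson limit 8.81%) and alpha-defensins (0 of 6, upper limit 45.9%), which are antimicrobial peptides, the type I interferons (0 of 17) and the killer and leukocyte immunoglobulin-like receptors (0 of 17). Epidermal cornification genes were bare, with 0 of 19 late cornified envelope genes and 0 of 11 small proline-rich genes. Germline and cancer-testis families were bare as well, namely the PRAME family (0 of 23), SPANX (0 of 10) and SSX (0 of 8), and so were 26 USP17-like proteases. The UDP-glucuronosyltransferases (0 of 19), which conjugate bilirubin and drugs in liver, and the GABA receptor subunits (0 of 19) completed the larger ones. Trace amine receptors (0 of 6) and vomeronasal receptors (0 of 4, upper limit 60.2%) are small families, so their upper limits are wide. USP17-like, PRAME, SPANX and SSX genes have near-identical copies, as do members of other bare families, such as DEFA1 and DEFA1B. Reads there may not be placed uniquely. How such reads were treated is not given in the sources used here.

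A further 8 families had a promoter peak in fewer than 10% of members. Only 1 of 414 olfactory receptors had one (0.242%, interval 0.00612 to 1.34). It was OR51B5, with 16 fragments at a distant alternative start site that shared its summit with the globin genes HBE1 and HBG2. The single bitter taste receptor of 24, TAS2R14, likewise shared a summit of 115 fragments with PRH1 and SMIM10L1, and neither gene had a peak at its canonical start site. The keratin-associated proteins had 8 of 94, led by KRTAP4-16 with 80 fragments and KRTAP2-3 with 68, and the clustered protocadherins 4 of 53, led by PCDHB2 with 26. With the gene bodies included, 22 of the 53 protocadherins had a peak, and the genes of each cluster overlap one another. Mucins had MUC1 alone of 17 and kallikreins KLK15 alone of 16, both by overlap with no summit in the window. Aquaporins had AQP11 alone of 13, and C-type lectin genes had 3 of 31.

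Other families had members with a promoter peak and members without one. Keratins had 6 of 55, led by KRT18 and KRT8. CC and CXC chemokines had 5 of 42, led by CXCL1 with 86 fragments, then CXCL2 and CXCL3, neutrophil attractants in 1 gene cluster. Cytochrome P450 genes had 12 of 56, led by CYP20A1 with 93 fragments and CYP51A1, a demethylase of cholesterol synthesis, with 79. Collagens had 15 of 44, led by COL5A1 with 61, and COL4A1 and COL4A2, which start back to back, with a shared summit of 52. Interleukins had 10 of 38. Of these IL5 (100 fragments) shared a summit with RAD50, and IL6 had 54 at its own start site. In the same way CLDN6 (120) shared a summit with TNFRSF12A, APOM (67) with BAG6 and the smooth muscle actin ACTA2 (44) with FAS, so these counts follow neighbours as well as the named genes. HOX genes had 20 of 39 (51.3%, interval 34.8 to 67.6, which includes the share over all genes), led by HOXB9 with 95.

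At the other end were mostly families of basic cell functions. All 78 mitochondrial ribosomal protein genes, all 38 complex I subunits and all 18 cytosolic aminoacyl-tRNA synthetases had a promoter peak. So did all 15 Pol II subunit genes and all 9 chaperonin subunits. All 7 AP-1 factors had one as well, but their interval (59.0 to 100) includes the share over all genes. Cytosolic ribosomal proteins had 80 of 82, all but RPL10L and RPL3L, with a median of 87 fragments and a median of 73.9% of the gene covered. Proteasome subunits had 46 of 48, lacking PSMA8 and PSMB11, members used in testis and thymus. ATP synthase subunits had 18 of 19, SR splicing factors 11 of 12 and eukaryotic initiation factors 42 of 46. The interval of the SR splicing factors (61.5 to 99.8) also includes the share over all genes. Within 1 function, levels still differed: mitochondrial ribosomal proteins had a median of 60 fragments with 7.21% of the gene covered. Their genes are not matched for length with those of the cytosolic ribosome.

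**Figure D5:**
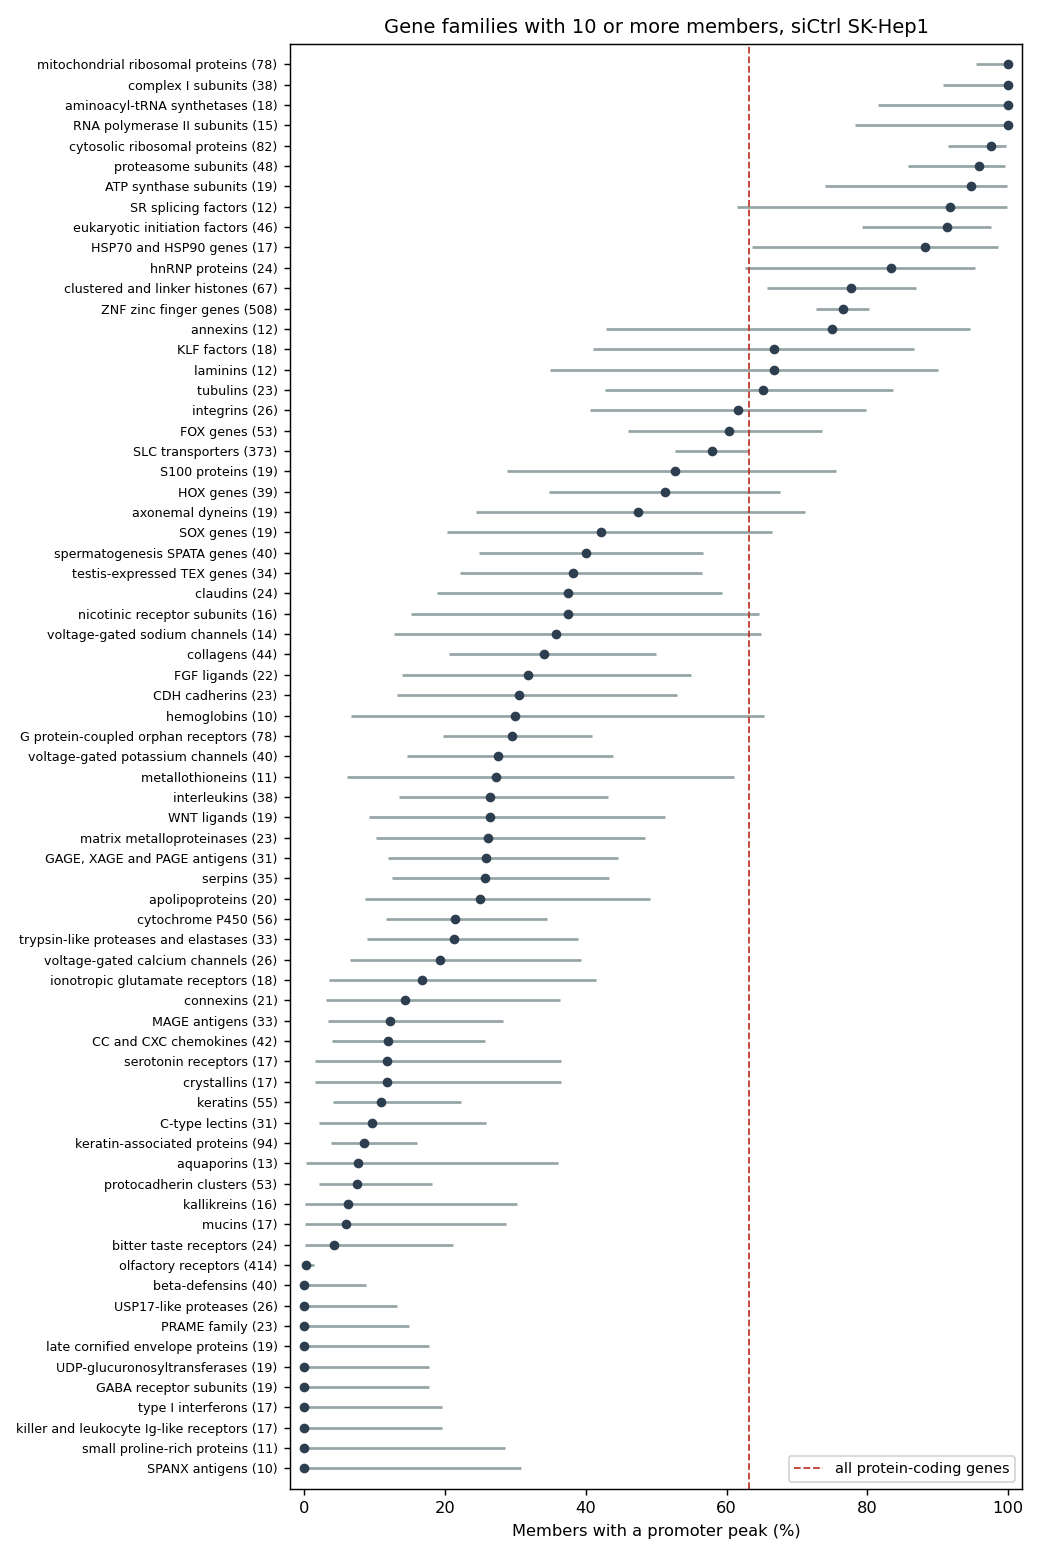
Points give the percentage of members with a promoter peak for families with 10 or more members (number in parentheses), and lines give 95% Clopper-Pearson intervals for counting error. The dashed line is the share over all protein-coding genes, 63.2%. Families of basic cell functions lie at or near 100% and sensory, epidermal, defence and germline families at or near 0.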

How the data were processed

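Pol II ChIP-seq peaks of 1 siCtrl library were described. Per the labels' protocols reads were aligned to hg19. Alignment with Bowtie2 2.3.5.1 and peak calling with MACS2 2.2.6 are given in the submitters' processing notes, whereas the list, per the file headers, came from MACS 2.2.7.1. Per the file headers, the caller kept 1 tag per position, used a p-value threshold of 1e-05 and a fragment length of 211 bp, and scaled the input by 0.861 to the ChIP library. The deposited pileup signal, the authors' fold ratio and the deposited −log10 p-value and q-value of each peak were used as given. Local background was computed as (pileup + 1) / fold − 1.

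Genes were 19359 protein-coding genes of GENCODE release 44 mapped to GRCh37, without 647 read-through genes and 89 without a symbol. A promoter was 1000 bp on either side of any annotated start site, and its pileup that of the highest summit inside. Gene share was the percentage of bases under peaks. The named genes were the leading 20 of each ranking and up to 3 members per family with the highest pileup. Other genes named, such as the markers, members without peaks and genes that share a summit, come from the fixed lists or were chosen after their values were seen. The ALB promoter was added for contrast after values were seen. Members and lists were chosen with earlier results of these data known. SSX2IP and GRINA, and a few genes that only share letters with the tubulins, integrins and initiation factors, were removed from families after values were seen. PECAM1 and peaks outside chromosomes 1 to 22 and X were not analysed here, and some genes are not reported here. Python 3.11.15 with pandas 2.3.3 and SciPy 1.17.1 was used, and the overlap code was tested on simulated data. Intervals cover counting error only, since tags without molecular identifiers are not independent molecules. Alternatives covered the window, the start sites, the q-value limit, the height measure, gene length, peak joining and family definition.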

Additional observations from a re-analysis of the deposited data

Results flagged for a closer look

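The siCtrl list also held 51 peaks on unplaced contigs, which no result above uses. Their highest summit held 118 fragments, above the 56 of the median promoter. They were noticed because signal appears in data outside the main measurement, and no control library without Pol II antibody gives a peak list to set beside them.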

How the results depend on the processing

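Across 25 alternative settings of 8 results, 18 values stayed within 1.5 times the count reported and 7 moved by more, or, for the 2 medians, beyond the 95% rank interval of the median over genes. Genes with a promoter peak ranged from 11555 (canonical start sites alone) to 12382 (2 kb window), and genes with no peak from 5605 (10 kb added on either side) to 6727 (−log10 q of at least 5). Families with no promoter peak numbered 14, and 18 when families were built from symbol stems. Ranking by the authors' fold kept 2 of the leading 20 promoters. With peaks up to 500 bp apart joined, 8 of the 20 widest-peak entries remained. With a minimum gene length of 5 kb, 0 of the leading 20 by share covered remained and the median share was 2.54%, and with 20 kb 9 remained and it was 1.57%, since other genes are then ranked. The median summit position was 110 bp downstream with canonical start sites alone, for which 278 genes had none. No paired analysis was possible because only 1 siCtrl ChIP library was analysed, and for the same reason no replicate could be left out. Differences of a few fragments between promoters are within counting error at this depth, and weak Pol II below the caller's threshold is not listed.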

Other observations

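Some of the tallest summits of the list lay away from protein-coding promoters, at genes for small RNAs of the splicing and ribosome machinery. A peak of 356 bp at chr3:73159882-73160237 had the highest pileup of all, 288 fragments over a background of 24.96, beside RNU2-64P, an annotated U2 small nuclear RNA pseudogene. The peak chr1:16991058-16994635 had 209 fragments over a background of 4.30 and lay by the U1 gene RNU1-3. By SNORD3B-2, a U3 small nucleolar RNA gene on chromosome 17, the summit held 192 fragments over a background of 1.76, for a fold of 69.9. A peak on chromosome 17 by LINC00910 had 216 fragments over a background of 25.8.

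The second highest summit, at chr10:42391540-42391754, held 240 fragments, but its background of 115 was the highest of any peak and its fold was 2.07. Small nuclear RNA genes have copies elsewhere in the genome, and how reads that fit several places were treated is not given in the sources used here.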
